A study of Caenorhabditis elegans with 12 samples.

Results

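The sid and rsd genes of Caenorhabditis elegans, named for systemic RNAi deficiency and RNAi spreading defects, are examined here as targets of small RNAs. The 7 members, sid-1, sid-2, sid-3, sid-5, rsd-2, rsd-3 and rsd-6, were chosen by gene name for their part in the import, spreading and germline response to double-stranded RNA, out of 42048 genes listed. The values count small RNAs assigned to a gene. They are not levels of its messenger RNA.

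In feeding RNA interference, worms eat bacteria that make double-stranded RNA, which enters the intestine, moves between cells and reaches the germline. SID-2 sits in the gut-facing membrane of intestinal cells and takes up ingested double-stranded RNA, and SID-1 is the channel through which double-stranded RNA passes into the cytoplasm. Inside a cell the double-stranded RNA is cut into primary small RNAs, and RNA-dependent RNA polymerases then copy the target transcript into secondary small RNAs of the 22G class. Endogenous genes, among them genes of the RNAi machinery, are also templates for 22G RNAs.

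Whole young mothers were raised at 20 °C after synchronization by starvation, on HT115 bacteria making a 400 nt double-stranded RNA against pos-1, and this feeding was common to all groups, controls included. The strains were meg-3(ax3055) meg-4(ax3052), mutant in both genes for a pair of intrinsically disordered proteins of the germline P granules, the mutant rde-11(hj37), whose gene encodes a zinc finger protein needed to amplify exogenous RNAi, and the wild type N2. For meg-3 meg-4 the titles name strain JH3475 in replicate 1 and JH3745 in replicate 2 of each RNA treatment, while the genotype label names JH3475 in all of them, so a slip in the titles and a second strain cannot be told apart. The sources used here do not give what hj37 changes in rde-11. RNA was treated with 5′ polyphosphatase, which lets the 5′ triphosphate 22G RNAs into the library, or left untreated, so that mainly 5′ monophosphate small RNAs were cloned. This gave 6 groups of 2 libraries. Nothing in the labels says that the 2 came from separate cultures, so p-values measure only the spread between these libraries, which may be technical.

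The libraries held 3884534 to 5278777 reads assigned to genes. Levels are given in fpm, the CPM unit, in which the reads of a gene are set against all reads of the library that were assigned to genes. In this unit 1 read was worth 0.189 to 0.257 fpm. In meg-3 meg-4, treated RNA held 0 and 0.379 fpm of meg-4, against 72.5 and 71.4 fpm in N2, and 1.06 and 1.33 fpm of meg-3, against 9.78 and 14.3 fpm in N2. The gene rde-11 stood at 744 and 758 fpm in its own mutant, against 636 and 631 fpm in N2, which checks no label, since the change in hj37 is not known here. pos-1, the gene fed against, stood at 2776 and 2120 fpm in treated meg-3 meg-4 RNA, at 1312 and 1116 fpm in rde-11, and at 8765 and 7819 fpm in N2. Since whole worms were used, fewer cells of a type and less small RNA per cell cannot be told apart in any value below.

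Of the members, sid-1 carried by far the most small RNAs. In treated RNA the 7 genes together held 1021 ± 71.3 fpm in meg-3 meg-4, 886 ± 28.6 fpm in rde-11 and 744 ± 28.5 fpm in N2 (mean ± SD, n = 2 each). sid-1 alone made up 91.3% ± 1.64 of that sum in meg-3 meg-4, 84.0% ± 2.31 in rde-11 and 87.1% ± 1.85 in N2. Without sid-1, the sum was 88.2 ± 10.5 fpm in meg-3 meg-4, 141.6 ± 15.9 fpm in rde-11 and 96.1 ± 17.4 fpm in N2. rde-11 was thus the highest strain for this sum, though not for each of its members, while meg-3 meg-4 was the highest for sid-1.

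**Figure D1:**
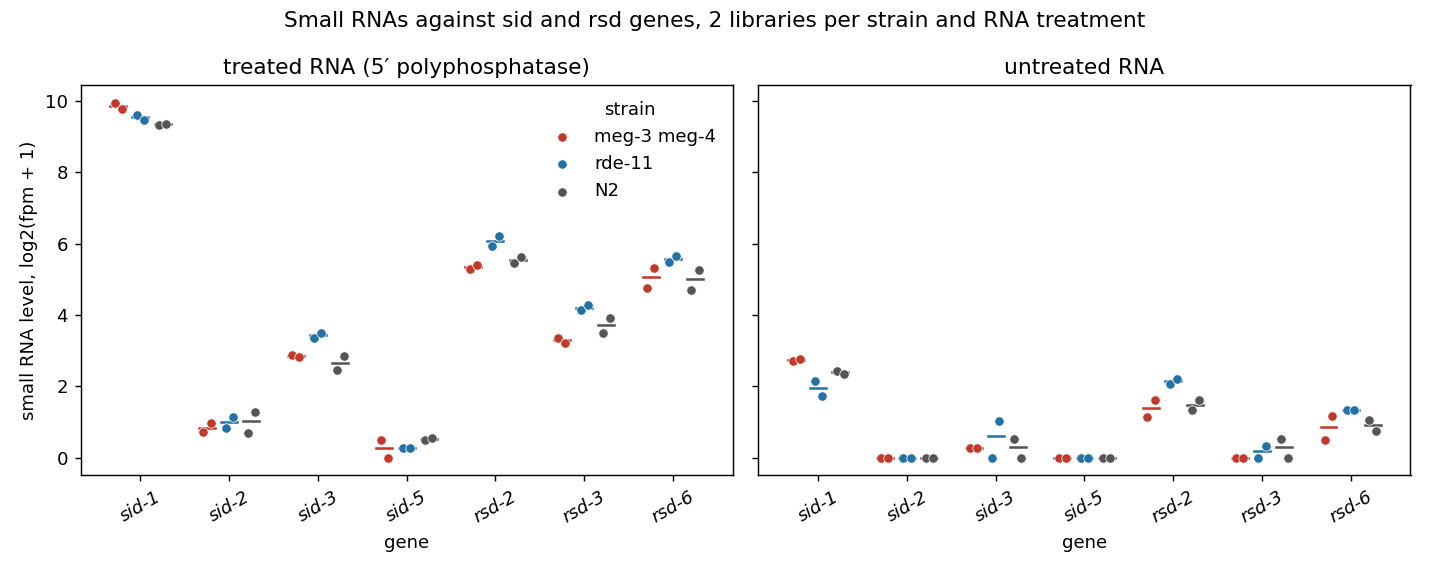
Small RNA level of each member in each library, as log2(fpm + 1), with treated RNA in one panel and untreated RNA in the other; each point is 1 of the 2 libraries of a strain. sid-1 stands far above the other members in treated RNA, and sid-2 and sid-5 lie at 0 in all 6 untreated libraries.

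Compared per length of exon, the members kept 1 order in treated RNA of all 3 strains: sid-1, rsd-6, rsd-2, rsd-3, sid-3, sid-2 and sid-5. sid-1 held 352 ± 30.9 fpm per kb of exon in meg-3 meg-4, 281 ± 16.8 in rde-11 and 244 ± 4.18 in N2 (SD, n = 2 each). In N2 the next level was that of rsd-6 at 12.2 ± 3.48 fpm per kb, followed by rsd-2 at 11.2 ± 0.986, and these neighbours in the order did not differ beyond their spread. rsd-3 stood at 6.58 ± 1.404 fpm per kb and sid-3 at 1.32 ± 0.301 in N2. sid-2 at 0.994 ± 0.565 and sid-5 at 0.858 ± 0.0957 fpm per kb were not separated from each other beyond their spread. Among all protein-coding genes, the sid-1 level per kb lay above 99.0% of genes in meg-3 meg-4, 98.8% in rde-11 and 98.6% in N2.

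The import channel gene sid-1 had 991 and 875 fpm in treated meg-3 meg-4 RNA, from 4689 and 4621 reads. It had 776 and 713 fpm in rde-11, from 3946 and 3540 reads, and 640 and 656 fpm in N2, from 3143 and 2749 reads. The libraries of the 3 strains do not overlap: both meg-3 meg-4 libraries lie above both rde-11 libraries, which lie above both N2 libraries. Here and below, the order of libraries is description only. The share of all genes with such an order was not taken. Between 2 groups of 2 libraries, an exact permutation test cannot go below p = 0.333 for a single value.

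The other sid genes were targets of few small RNAs. sid-3, which encodes a tyrosine kinase needed for efficient import of double-stranded RNA, had 6.34 and 6.06 fpm in treated meg-3 meg-4 RNA, 9.24 and 10.3 fpm in rde-11 and 4.48 and 6.21 fpm in N2. Its rde-11 libraries lie above all others, and those of meg-3 meg-4 overlap with N2. sid-2, the gene of the intestinal uptake protein, averaged 0.791 ± 0.221 fpm in meg-3 meg-4, 0.997 ± 0.298 fpm in rde-11 and 1.02 ± 0.580 fpm in N2 (SD, n = 2 each), from 8 reads in all in meg-3 meg-4, 10 in rde-11 and 9 in N2. sid-5, which encodes a protein of endosomes needed for the export of silencing RNA from cells, gave 2 reads in meg-3 meg-4, 2 in rde-11 and 4 in N2 over both treated libraries. At this depth most differences between strains could not be tested for these genes. sid-5 was tested in no comparison, and sid-2 only in rde-11 against N2 with treated RNA, where it was not called.

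The rsd genes had intermediate levels. rsd-2 encodes a protein that acts with the Tudor domain protein RSD-6 in the germline response to double-stranded RNA. In treated RNA rsd-2 had 38.05 and 41.1 fpm in meg-3 meg-4 worms, 59.96 and 73.3 fpm in rde-11 and 43.0 and 48.7 fpm in N2. Both rde-11 libraries were above both N2 libraries, which were in turn above both meg-3 meg-4 libraries. rsd-6 had 26.0 and 39.2 fpm in meg-3 meg-4 worms, 43.4 and 49.5 fpm in rde-11 and 24.9 and 37.5 fpm in N2. Its rde-11 libraries were the highest, and the meg-3 meg-4 and N2 libraries overlapped. rsd-3, which encodes a protein with an epsin-like domain found in vesicle traffic, had 9.301 and 8.34 fpm in meg-3 meg-4 worms, 16.7 and 18.3 fpm in rde-11 and 10.4 and 14.1 fpm in N2. The rde-11 libraries were again the highest and the meg-3 meg-4 libraries the lowest, with no overlap between strains.

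In treated RNA, small RNAs against sid-1 rose in meg-3 meg-4 relative to N2, and those of no other tested member did. limma on log2(fpm + 1) tested the genes that averaged 1 fpm or more over the libraries compared, with Benjamini-Hochberg adjustment over all genes and a call at an adjusted p under 0.05. Of the 7 members 5 could be tested, and 1 was called, beside 8.27% of all genes tested (1.54% higher and 6.72% lower). sid-1 changed by 0.52 with a standard error of 0.12 (95% confidence interval 0.25 to 0.80, limma adjusted p = 0.0360), which is 1.44 times the N2 level. The median change of all genes tested was -0.13, and that of the 5 members 0.06. edgeR's quasi-likelihood test on recovered reads, which called 8.98% of genes, gave sid-1 a change of 0.66 (adjusted p = 0.0152), while DESeq2, which called 7.07%, gave 0.73 (adjusted p = 0.0554). The authors' deposited table holds 0.73 with an adjusted p of 0.0545, and calls 7.20% of its genes.

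The other members did not pass this test. Their log2 changes between meg-3 meg-4 and N2 were 0.20 for sid-3 (interval -0.42 to 0.81, limma adjusted p = 0.795), -0.21 for rsd-2 (-0.71 to 0.30, 0.721), -0.42 for rsd-3 (-1.02 to 0.19, 0.476) and 0.06 for rsd-6 (-0.64 to 0.77, 0.950). The intervals allow changes of up to 0.81 upward and 1.02 downward. With 1 N2 library left out, the spread within groups comes from the meg-3 meg-4 libraries alone: the sid-1 change stayed at 0.50 without N2 replicate 1 and 0.54 without N2 replicate 2, while its limma adjusted p was 0.347 and 0.261 in these fits, over a range of 3.2e-05 to 0.573 in all alternatives. The call ended also with no filter on low values (0.0803) and where microRNAs were taken as the constant class (change 0.27, adjusted p = 0.573), a scaling under which the microRNAs of at least 50 fpm, with a median change of 0.24, are set to no change.

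**Figure D2:**
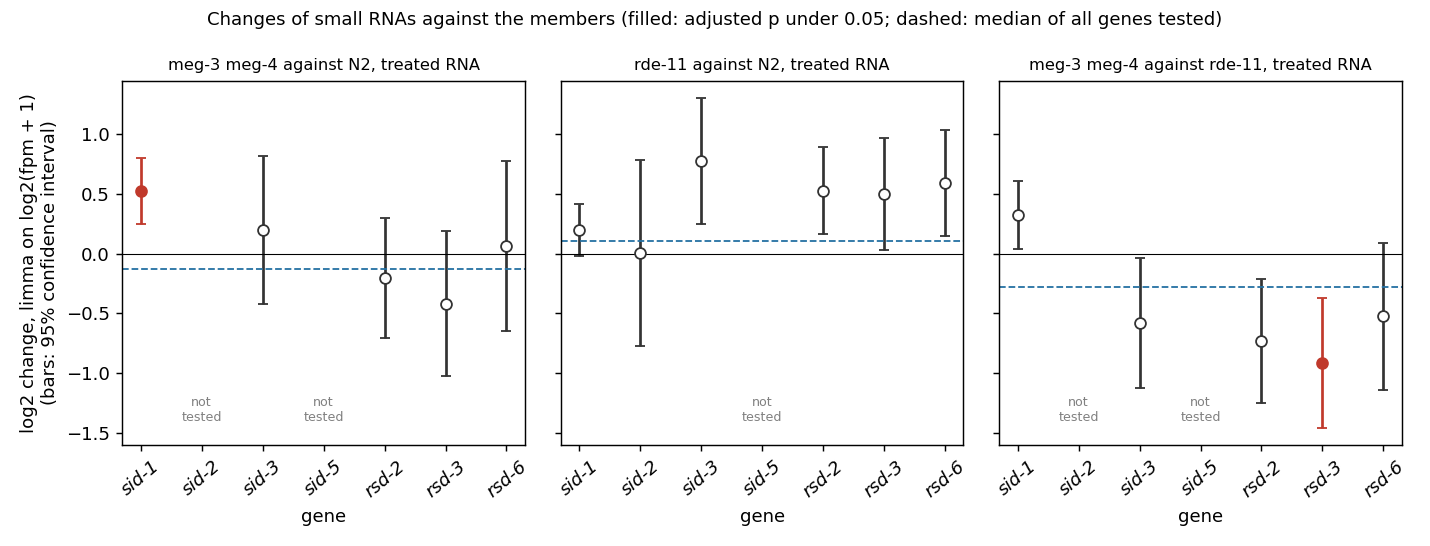
Log2 change of each tested member for the comparisons among strains in treated RNA, with 95% confidence intervals; filled points had a limma adjusted p under 0.05 and the dashed line is the median of all genes tested. sid-1 is filled in meg-3 meg-4 against N2 and rsd-3 in meg-3 meg-4 against rde-11.

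In treated RNA of rde-11 against N2, no member passed the test. limma called 10.8% of all genes here (6.34% higher and 4.48% lower), and 0 of 6 members. edgeR and DESeq2 called 0 members too, beside 12.4% of genes in edgeR and 7.29% in DESeq2. The log2 changes were 0.77 for sid-3 (interval 0.24 to 1.30, limma adjusted p = 0.0615), 0.53 for rsd-2 (0.16 to 0.89, 0.0639), 0.50 for rsd-3 (0.03 to 0.97, 0.167) and 0.59 for rsd-6 (0.15 to 1.03, 0.0859). sid-1 differed by 0.20 (interval -0.02 to 0.42, limma adjusted p = 0.238) and sid-2 by 0.00 (-0.77 to 0.78, 0.997).

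The 6 changes in rde-11 lay between 0.00 and 0.77 on this scale, with a median of 0.51 beside 0.11 for all genes tested and 0.23 for genes of at least 50 fpm. With the median gene set to no change, sid-1 stood at -0.03 and sid-2 at -0.22, so that their direction depends on the scaling. With 1 N2 library left out, the spread comes from the rde-11 libraries alone, so only the changes are given. Without N2 replicate 2 they were 0.97 for sid-3, 0.61 for rsd-2 and 0.87 for rsd-6. Without N2 replicate 1 they were 0.58 for sid-3, 0.44 for rsd-2 and 0.30 for rsd-6. Over all alternatives, the adjusted p of limma, edgeR and DESeq2 ranged between 0.0149 and 0.478 for sid-3. It ranged between 6.6e-04 and 0.416 for rsd-2 and between 0.00103 and 0.516 for rsd-6.

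**Figure D3:**
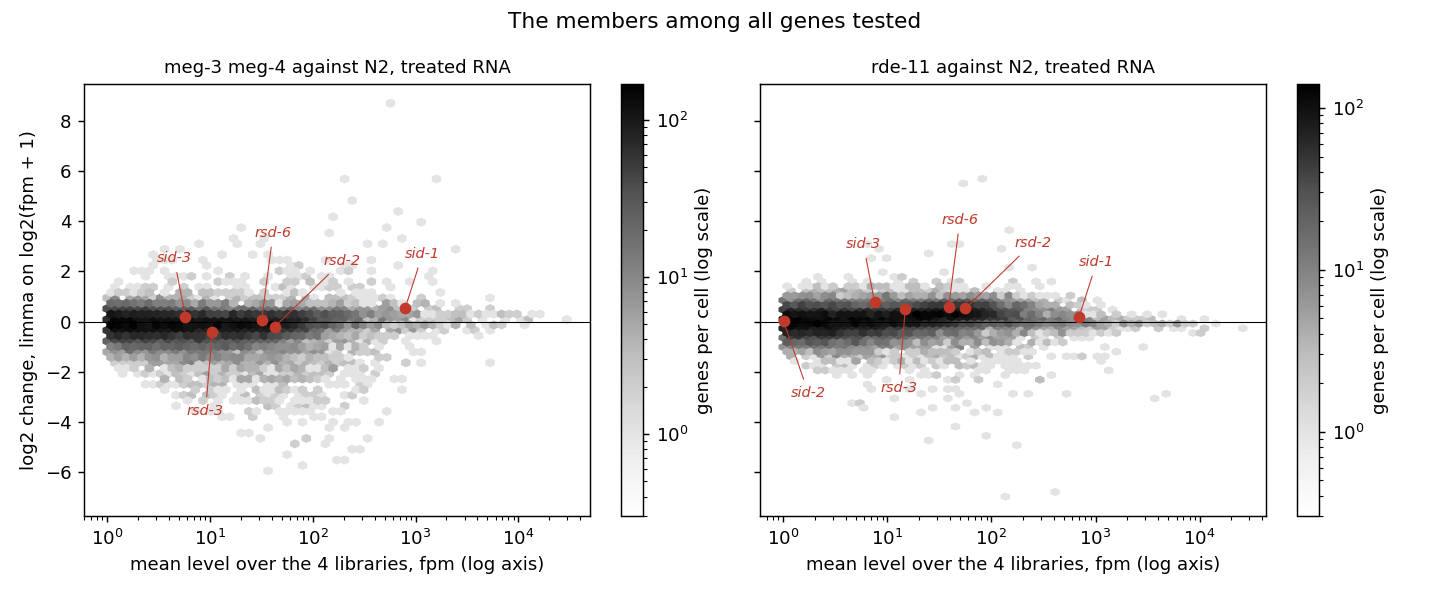
Log2 change against mean level in fpm (log axis) for all genes tested in treated RNA, with the members named; the grey shading counts genes. sid-1 lies among the highest levels, and the rsd genes and sid-3 lie above 0 in rde-11 against N2.

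Between the mutants in treated RNA, rsd-3 was lower in meg-3 meg-4 worms than in rde-11. It was the 1 member called of 5 tested, beside 12% of all genes (3.61% higher and 8.39% lower). Its change was -0.92 with a standard error of 0.23 (interval -1.46 to -0.37, limma adjusted p = 0.0429), or 0.530 of the rde-11 level. edgeR, which called 12.4% of genes, gave -0.74 (adjusted p = 0.101), and DESeq2 called 7.91%. The median change of all genes tested was -0.28. With 1 rde-11 library left out, where the spread comes from the meg-3 meg-4 libraries alone, the change was -0.98 without replicate 1 (limma adjusted p = 0.249) and -0.85 without replicate 2 (0.324), so the size held while the call ended. The call ended also with no filter (0.108), with the median gene set to no change (change -0.57, adjusted p = 0.194) and in DESeq2 (0.542), over a range of 0.0025 to 0.542.

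The remaining members did not pass the limma test between the mutants. sid-1 differed by 0.32 (interval 0.04 to 0.61, limma adjusted p = 0.131), sid-3 by -0.58 (-1.12 to -0.03, 0.154), rsd-2 by -0.73 (-1.25 to -0.21, 0.0746) and rsd-6 by -0.52 (-1.14 to 0.09, 0.238). edgeR called sid-1 higher in meg-3 meg-4 (0.58, adjusted p = 0.0299), and limma did so with the median gene set to no change (0.67, adjusted p = 0.0107), while with microRNAs as the constant class the difference was -0.0013. Over its alternatives the adjusted p of sid-1 ranged between 0.0045 and 0.997. With 1 meg-3 meg-4 library left out, the spread comes from the rde-11 libraries alone, so only the changes are given. Without meg-3 meg-4 replicate 2 they were 0.41 for sid-1, -0.79 for rsd-2, -0.84 for rsd-3 and -0.81 for rsd-6. Without meg-3 meg-4 replicate 1 they were 0.24 for sid-1, -0.68 for rsd-2, -0.99 for rsd-3 and -0.24 for rsd-6. With all 3 strains in 1 fit limma called rsd-2 (adjusted p = 0.0326) beside rsd-3. Over the alternatives the adjusted p ranged between 0.0015 and 0.626 for rsd-2 and between 0.0022 and 0.984 for rsd-6. Both mutants were set against the same N2 libraries, so their changes from N2 are not independent of each other.

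**Figure D4:**
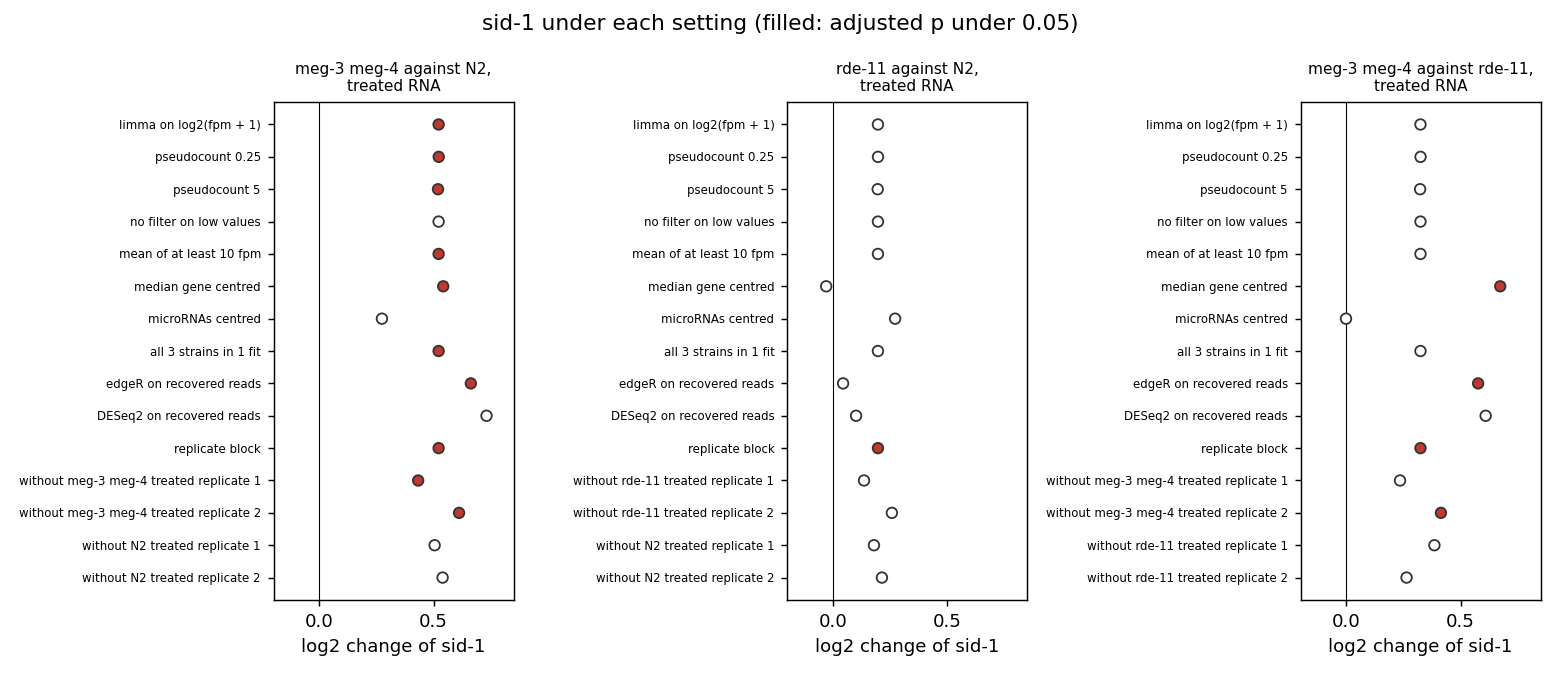
Log2 change of sid-1 under each setting for comparisons among strains in treated RNA; filled points had an adjusted p under 0.05. In meg-3 meg-4 against N2 the change lies between 0.27 and 0.73 under all settings shown, and in rde-11 against N2 it lies near 0 with the median gene set to no change.

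In untreated RNA the members had few reads. sid-1 had 5.58 and 5.80 fpm in meg-3 meg-4, from 28 reads in each library, 3.44 and 2.32 fpm in rde-11, from 16 and 9 reads, and 4.38 and 4.11 fpm in N2, from 20 and 18 reads. The order of the strains in these libraries was meg-3 meg-4, N2 and rde-11, with no overlap. rsd-2 had 1.19 and 2.07 fpm in meg-3 meg-4 worms, 3.22 and 3.60 fpm in rde-11 and 1.53 and 2.06 fpm in N2, so that its rde-11 libraries were the highest here as in treated RNA. rsd-6 had 0.398 and 1.24 fpm in meg-3 meg-4 worms, 1.505 and 1.54 fpm in rde-11 and 1.10 and 0.685 fpm in N2. rsd-3 and sid-3 had at most 4 reads in a library. sid-2 and sid-5 had 0 reads in each of the 6 libraries, where the limit that 0 reads allow (3 reads) is 0.597 to 0.772 fpm. Limits of this kind cover counting error only: the reads carry no molecular identifiers and are not independent molecules.

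limma called no member between strains in untreated RNA. DESeq2 gave an adjusted p for no member in meg-3 meg-4 against N2, and for sid-1 alone in the other untreated comparisons. edgeR gave one for sid-1 alone in meg-3 meg-4 against N2, and for sid-1 and rsd-2 in the others. None of these was under 0.05. In meg-3 meg-4 against N2, limma called 0.238% of genes, edgeR 0.266% and DESeq2 1.03%. There 2 members were tested: sid-1 differed by 0.35 (interval -0.32 to 1.02, limma adjusted p = 0.774) and rsd-2 by -0.10 (-0.89 to 0.69, 0.959). In rde-11 against N2, limma called 0.593%, edgeR 0.416% and DESeq2 0.266%. There 3 members were tested: sid-1 differed by -0.45 (-1.16 to 0.26, limma adjusted p = 0.679), rsd-2 by 0.66 (-0.08 to 1.41, 0.526) and rsd-6 by 0.43 (-0.39 to 1.24, 0.744). Between meg-3 meg-4 and rde-11, limma called 10.5%, edgeR 2.61% and DESeq2 1.67%. Of the 3 members tested, sid-1 differed by 0.80 (0.11 to 1.49, limma adjusted p = 0.120), rsd-2 by -0.76 (-1.53 to 0.004, 0.181) and rsd-6 by -0.51 (-1.32 to 0.30, 0.401).

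Treated RNA held far more small RNAs of sid-1, rsd-2 and rsd-6 than untreated RNA in every strain. The mean level of sid-1 in treated RNA was 164 times that in untreated RNA in meg-3 meg-4, 259 times in rde-11 and 153 times in N2. These ratios lay above those of 92.5% of 4456 protein-coding genes in meg-3 meg-4, 95.6% of 4816 in rde-11 and 90.4% of 4567 in N2, over genes with at least 10 fpm in treated RNA and 4 reads in untreated RNA. The median ratio of those genes was 28.8 in meg-3 meg-4, 27.2 in rde-11 and 28.7 in N2. rsd-2 lay near that median, at 24.2 in meg-3 meg-4, 19.5 in rde-11 and 25.5 in N2, and so did rsd-6, at 39.8 in meg-3 meg-4, 30.5 in rde-11 and 35.0 in N2. rsd-3 had 0 untreated reads in meg-3 meg-4 and was at least 28.9-fold higher in treated RNA, against a limit of 3 reads over both libraries. sid-2 and sid-5 had 0 untreated reads in every strain. Against the same limit, the ratio of sid-2 was at least 2.60 in meg-3 meg-4, 2.81 in rde-11 and 3.04 in N2. That of sid-5 was at least 0.694 in meg-3 meg-4, 0.562 in rde-11 and 1.32 in N2, so no large excess was shown for either gene.

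limma called sid-1 and rsd-2 higher in treated RNA in each strain, beside 57.1% of genes called higher in meg-3 meg-4, 55.3% in rde-11 and 57.0% in N2. Both averaged 1 fpm or more in untreated RNA too. sid-3, rsd-3 and, outside rde-11, rsd-6 averaged under 1 fpm in untreated RNA and passed the filter only through their treated libraries, so that a higher level in treated RNA was fixed by the filter, and nothing is read from their calls. sid-1 changed by 7.12 in meg-3 meg-4 (limma adjusted p = 3.0e-05), 7.60 in rde-11 (1.6e-06) and 6.95 in N2 (9.2e-06). rsd-2 changed by 3.97 in meg-3 meg-4 (limma adjusted p = 1.3e-04), 3.93 in rde-11 (6.6e-06) and 4.07 in N2 (2.3e-05). Levels are shares of the reads assigned to genes. Setting the median gene of at least 50 fpm to no change subtracts 4.70 in meg-3 meg-4, 4.52 in rde-11 and 4.86 in N2 from every change. Each change below that constant then turns negative, that of rsd-2 among them.

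Whether a strain's change differed between the RNA treatments was tested as an interaction. limma called 0 of 5 members in meg-3 meg-4 against N2, beside 3.38% of genes, and 0 of 5 in rde-11 against N2, beside 0.455%. edgeR and DESeq2 called 0 in both, but DESeq2 gave an adjusted p for sid-1 alone in rde-11 against N2. It gave none for sid-3 in meg-3 meg-4 against N2. Over the untreated libraries, sid-3 and rsd-3 averaged under 1 fpm in both comparisons, and rsd-6 did in meg-3 meg-4 against N2. These members passed the filter only through their treated libraries, so nothing is read from their terms. edgeR called 0.114% of genes for meg-3 meg-4 and 0.149% for rde-11, and DESeq2 called 0.312% for meg-3 meg-4 and 0.786% for rde-11. In meg-3 meg-4, sid-1 had a term of 0.17 (interval -0.41 to 0.76, limma adjusted p = 0.897). In rde-11, the sid-1 term was 0.65 (0.03 to 1.27, limma unadjusted p = 0.0426 and adjusted p = 0.517).

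The other genes of exogenous RNAi, of which 26 of 27 listed were found, are given by their counts. In meg-3 meg-4 against N2 with treated RNA, 1 of 26 tested rose and 0 fell, beside 1.54% higher and 6.72% lower among all genes tested, with a median change of 0.09 beside -0.13. The gene was rde-11 itself, at 4359 ± 10.9 fpm in meg-3 meg-4 against 633 ± 3.33 fpm in N2 (SD, n = 2 each; change 2.78, limma adjusted p = 1.6e-05). In rde-11 against N2, 7 of 25 tested rose and 1 fell (6 and 1 in edgeR), beside 6.34% higher and 4.48% lower among all genes tested, with a median change of 0.47 beside 0.11. The risen genes with the smallest adjusted p were the Argonaute gene wago-1 (1.16, limma adjusted p = 6.0e-04), the RNA-dependent RNA polymerase genes rrf-1 (0.70, 0.00553) and ego-1 (0.75, 0.0104), the RIG-I-like helicase gene drh-1 (0.89, 0.0144) and the Dicer gene dcr-1 (0.75, 0.0196). wago-1 averaged 167 ± 31.8 fpm in rde-11 and 73.7 ± 7.91 fpm in N2. The Argonaute gene sago-1 fell to 0.793 ± 0.268 fpm in rde-11, against 5.99 ± 0.980 fpm in N2 (-1.96, limma adjusted p = 0.00118).

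Between meg-3 meg-4 and rde-11 in treated RNA, 2 of 25 were higher in meg-3 meg-4, beside 3.61% of all genes, namely rde-11 (2.54, limma adjusted p = 6.0e-06) and sago-1 (2.09, 0.00437), and 1 was lower, beside 8.39%, the nucleotidyltransferase gene mut-2 (-1.13, 0.0494), which edgeR did not call (adjusted p = 0.121). In untreated RNA, rde-11 was the 1 of 19 called in meg-3 meg-4 against N2, beside 0.238% of all genes. It held 18.0 ± 0.923 fpm in meg-3 meg-4 against 5.27 ± 0.944 fpm in N2 (change 1.61, limma adjusted p = 1.9e-04). In rde-11 against N2 with untreated RNA, limma called 0 of 19, beside 0.593% of all genes, and edgeR 0 of 16, beside 0.416%. Between the mutants in untreated RNA, rde-11 was higher in meg-3 meg-4 (1.93, limma adjusted p = 5.8e-05), and rrf-1 (-1.30, 0.0388) and nrde-2 (-0.90, 0.0118) were lower. These were called of 20 tested, beside 10.5% of all genes. edgeR did not call the difference of rrf-1 (adjusted p = 0.407) or nrde-2 (0.377).

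Among genes related to the members, those of the SID-1 family proteins CHUP-1 and C08A9.3 and of SEC-22, a vesicle fusion protein that binds SID-5, gave 0 calls of 3 in treated RNA of either mutant against N2. sec-22 was lower in meg-3 meg-4 worms than in rde-11, at 21.2 ± 1.36 fpm in meg-3 meg-4 against 41.2 ± 0.979 fpm in rde-11 (change -0.93, limma adjusted p = 0.0360), and edgeR did not call it (adjusted p = 0.100). chup-1 averaged 1.65 ± 1.14 fpm in meg-3 meg-4 against 3.34 ± 0.683 fpm in N2.

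The genes beside the members on the chromosome were examined because reads of neighbours can be assigned to each other. sid-1, rsd-2, rsd-3, sid-3 and sid-5 overlap no other annotated gene, and no member shared its values with another line in all libraries. sid-1 lies next to C04F5.9, which held 50.7 ± 4.49 fpm in meg-3 meg-4 against 75.5 ± 1.90 fpm in N2 (change -0.57, limma adjusted p = 0.171), and next to F14F9.5, which held 0.306 ± 0.165 fpm in meg-3 meg-4 against 1.05 ± 0.815 fpm in N2. rsd-2 lies next to dcap-2, the gene of a decapping enzyme, which held 71.5 ± 0.964 fpm in meg-3 meg-4 against 120 ± 5.42 fpm in rde-11 (change -0.74, limma adjusted p = 0.0465; edgeR 0.178). rsd-6 lies next to tbcd-1, a tubulin-folding cofactor gene, which held 88.4 ± 22.7 fpm in rde-11 and 42.6 ± 10.7 fpm in N2 (1.03, limma adjusted p = 0.00801), and rsd-6 shares a short stretch of exon with tba-5 on the other strand. sid-2 shares one with dyf-2 on the other strand, which held 3.85 ± 1.43 fpm in meg-3 meg-4 against 11.1 ± 0.161 fpm in N2 (-1.35, limma adjusted p = 0.0294). The sources used here do not say whether reads were counted by strand, so the few reads of sid-2 and dyf-2 in the shared stretch cannot be told apart. The second neighbour of sid-2, cul-2, held 89.3 ± 24.6 fpm in rde-11 and 51.0 ± 13.9 fpm in N2 (0.80, limma adjusted p = 0.0339). The remaining neighbours, F52G2.3, C34E11.4, Y102F5A.1, cyp-36A1, aqp-11, B0302.2, B0302.5, nhx-4 and pes-23, averaged at most 1.71 fpm in treated RNA of any strain.

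For each member with at least 10 fpm on average over the 6 treated libraries, the 3 genes of most similar pattern were sought among 7644 genes, by the root mean square difference of log2(fpm + 1) centred on each gene's mean. For sid-1 these were Y18H1A.7 (0.0235), the microRNA mir-789.2 (0.0376) and F53G12.4 (0.0398). Y18H1A.7 averaged 204 ± 12.9 fpm in meg-3 meg-4, 160 ± 7.28 fpm in rde-11 and 138 ± 3.71 fpm in N2 (SD, n = 2 each), and F53G12.4 622 ± 55.4, 517 ± 30.9 and 433 ± 13.5 fpm in the same strains. For rsd-2 they were zgpa-1 (0.0569), atg-13 (0.0663) and 21ur-4429 (0.0680), for rsd-3 sec-22 (0.0688), abt-1 (0.0887) and dlst-1 (0.0944), and for rsd-6 ZK829.7 (0.0430), F40F8.11 (0.0461) and F44E2.10 (0.0469). The search ran over 6 libraries that share their strains and depth, so these are descriptions only.

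The makeup of the worms was followed with lists of tissue genes in treated RNA. In meg-3 meg-4 against N2, 0 of 8 embryo microRNAs of the mir-35 family, 0 of 12 intestine and yolk genes and 0 of 12 oogenic germline genes were called, while 3 of 8 neuron genes and 2 of 3 muscle genes were lower and 1 of 11 sperm genes was called in each direction, beside 1.54% higher and 6.72% lower among all genes tested. edgeR called 1 of 8 neuron genes and 2 of 3 muscle genes lower. In rde-11 against N2, 3 of 12 oogenic germline genes and 1 of 9 neuron genes were higher, 1 of 12 intestine and yolk genes was called in each direction, and 0 of 8 embryo microRNAs, 0 of 12 sperm genes and 0 of 3 muscle genes were called, beside 6.34% higher and 4.48% lower among all genes tested. edgeR called 1 of 12 oogenic germline genes higher, 1 neuron gene higher and 2 lower of 9, 1 intestine and yolk gene higher and 2 lower of 8, and 1 of 3 muscle genes lower. The summed level of the embryo microRNAs was 9296 and 7573 fpm in meg-3 meg-4 worms, 11559 and 9839 fpm in rde-11 and 10433 and 9634 fpm in N2. The summed level of the oogenic germline genes was 638 and 1033 fpm in meg-3 meg-4 worms, 1050 and 1228 fpm in rde-11 and 765 and 948 fpm in N2. The neuron genes summed to 56.6 and 51.0 fpm in meg-3 meg-4 worms, 88.9 and 82.1 fpm in rde-11 and 98.8 and 89.3 fpm in N2, and the muscle genes to 15.2 and 14.97 fpm in meg-3 meg-4 worms, 34.01 and 30.8 fpm in rde-11 and 46.3 and 38.2 fpm in N2. Both lists were lowest in the meg-3 meg-4 libraries, and so were the embryo microRNAs and the sperm genes. The intestine and yolk genes summed to 122 and 108 fpm in meg-3 meg-4 worms, 223 and 216 fpm in rde-11 and 90.3 and 93.8 fpm in N2. The sperm genes summed to 116 and 117 fpm in meg-3 meg-4 worms, 271.5 and 270.4 fpm in rde-11 and 218 and 219 fpm in N2. The part of tissue makeup in the members' values was not tested.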

How the data were processed

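Small RNA libraries from whole worms were analysed from 4 deposited tables, each with 1 mutant and N2. The deposited values are fpm per library, a CPM unit without length correction, per the file headers, beside the authors' own log2 fold change and adjusted p-value. Per the submitters' processing notes, cutadapt, Bowtie2, HTSeq, DESeq2 and build ce10 were used, with no versions given. The 8 columns of averages by the authors were left out. Within a library each fpm value was a whole multiple of 1 step (100% of values, within 0.01 reads), so reads were recovered for edgeR 4.0.16 and DESeq2 1.42.0 as alternatives. The test was limma 3.58.1 in R 4.3.3, with a trend of variance on level, on log2(fpm + 1), a scale that understates changes of low genes. It was tested on simulated data. The WBcel235 annotation, another build, gave names, exon lengths and neighbours for 41759 genes, so no coordinates are given. Genes were named by rule: all members, up to 5 called genes per direction of the RNAi and SID-1 family lists, the 3 most similar genes per member of at least 10 fpm, and neighbours. The members and lists were chosen with earlier results of these data known. Alternatives were pseudocounts of 0.25 and 5, filters, scalings, fits and leaving out each library in turn.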

Additional observations from a re-analysis of the deposited data

Results flagged for a closer look

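The effects of the mutants on rsd-3 in treated RNA differed in a direct test of the difference: rsd-3 was lower in meg-3 meg-4 worms than in rde-11 worms by a log2 change of -0.92 (limma adjusted p = 0.0429), at 8.82 ± 0.683 fpm in meg-3 meg-4 against 17.5 ± 1.14 fpm in rde-11 (SD, n = 2 each), beside 12% of all genes called. It was not called by edgeR (adjusted p = 0.101) or DESeq2 (0.542), with no filter on low values (0.108), with the median gene centred (change -0.57, adjusted p = 0.194) or with 1 rde-11 library left out (-0.98 and 0.249 without replicate 1, -0.85 and 0.324 without replicate 2).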

How the results depend on the processing

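With 2 libraries a group, an exact permutation test cannot go below p = 0.333 for a single value, and the low members rest on few reads. Of 676 alternatives for single members, 599 kept direction and side of the threshold, 18 gained a call, 13 lost one and 46 reversed, 34 of them for changes that were not called; where no cause is named, the cause was not tested.

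The number of members called for meg-3 meg-4 against N2, treated RNA, was 1, and 0 with no filter, with microRNAs centred and in DESeq2, and 0 to 1 when 1 library was left out. For rde-11 against N2 it was 0, and 5 with the replicate number as a block and 0 to 3 when 1 library was left out. For meg-3 meg-4 against rde-11 it was 1, and 0 with no filter or in DESeq2, 2 with all 3 strains in 1 fit, 3 with the replicate block, and 0 to 4 when 1 library was left out. In untreated RNA it was 0 between the mutants, and 1 with the replicate block. The counts over all genes moved in the alternatives too, as given below, so nothing about the members is read from these counts. Same-numbered libraries deviated together with correlations of 0.239 to 0.595, but the labels do not pair them and there are only 2 pairs, so they were taken to share only a number. Of treated against untreated RNA, 5 members passed the test in each strain, of which only sid-1 and rsd-2 averaged 1 fpm or more in untreated RNA of all 3 strains, and 3 with a mean of at least 10 fpm, where only 3 were tested, and 3 in rde-11 with the median gene centred.

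The 12 reversals of called changes came from the median gene centred between treated and untreated RNA. sid-3 then stood at -2.12 in meg-3 meg-4, -1.61 in rde-11 and -2.47 in N2, rsd-2 at -0.73, -0.59 and -0.79, rsd-3 at -1.41, -0.48 and -1.41, and rsd-6 at -0.48, -0.29 and -0.79 in the same order. The reversals in meg-3 meg-4 against N2, treated RNA, were sid-3 (-0.052) and rsd-6 (-0.19) with microRNAs centred, and without 1 library sid-3 ranged over -0.0012 to 0.39 and rsd-6 over -0.22 to 0.35. In rde-11 against N2 they were sid-2 (-0.0034 with a pseudocount of 5, -0.22 with the median gene centred, -0.29 to 0.16 without 1 library) and sid-1 (-0.029 with the median gene centred). Between the mutants it was sid-1 (-0.0013 with microRNAs centred). In untreated RNA of meg-3 meg-4 against N2, rsd-2 was at 0.16 with the median gene centred and at -0.34 to 0.14 without 1 library.

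For the interaction of meg-3 meg-4 against N2, rsd-3 was at 0.28 with a pseudocount of 0.25, 3.34 in edgeR and 1.97 in DESeq2, and sid-1 at -0.047 in DESeq2. Without 1 library the ranges were -0.071 to 0.45 for sid-3, -0.19 to 0.49 for rsd-6, -0.42 to 0.11 for rsd-3 and -0.35 to 0.14 for rsd-2. For rde-11 against N2, rsd-6 was at -0.062 with a pseudocount of 0.25, -0.34 in edgeR and -0.13 to 0.45 without 1 library, rsd-2 at 0.18 with a pseudocount of 5, 0.20 with microRNAs centred and -0.28 to 0.0034 without 1 library, and sid-3 at -0.30 in edgeR.

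Counts over all genes moved too. In treated RNA the 1344 genes called in meg-3 meg-4 against N2 ranged over 736 to 2756 in the alternatives, the 1784 of rde-11 against N2 over 456 to 4213 and the 1947 between the mutants over 826 to 5940. In untreated RNA the counts of 26, 69 and 1200 ranged over 0 to 348, 0 to 121 and 11 to 2941. The interaction counts were 557 for meg-3 meg-4 (18 to 1289) and 77 for rde-11 (10 to 436). Between treated and untreated RNA, 14251 genes were called in meg-3 meg-4 and 6234 with a mean of at least 10 fpm, 15876 and 7445 in rde-11, and 15576 and 7044 in N2.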
